A study of Mus musculus with 173 samples.

Results

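The genes described here are 10 enzymes of glycolysis and lactate formation: Hk1, Hk2, Gpi1, Pfkm, Pfkp, Aldoa, Aldoc, Pgk1, Ldha and Ldhb. They were chosen by name, with no threshold on a measured value, but with earlier results of these data known. All 10 were found among the 23307 genes of a single-cell RNA-seq table of the mouse dentate gyrus. The dentate gyrus is the hippocampal region where neural stem cells give rise to granule neurons throughout life. The question put to these genes was how their levels differ between the classes of cells, and whether paired isoenzymes (Aldoc against Aldoa, Ldha against Ldhb) change places when cells divide.

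Cells came from C57BL/6 mice aged 8 to 12 weeks, and each library holds the RNA of 1 cell, amplified with the NuGEN Ultralow V2 chemistry. Of the 172 libraries, 26 have titles that begin with N, 4 with R and all others with C, letters that the labels do not spell out. The study set out to profile quiescent stem cells of the adult hippocampus together with the cells they give rise to. The labels give no genotype, treatment, sort gate, animal or batch for any class, although the table holds a row for the cyan fluorescent protein eCFP, a transgene. With no animal named, each class counts as 1 sample, so there is no test, and every SD below is a spread between libraries. Values are TPM, transcripts scaled by length and to a common library total, and the sequencing depth behind them is unknown.

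Glycolysis splits glucose into pyruvate and yields ATP without oxygen. Several of its steps can be carried out by sister enzymes from separate genes, which differ in where they are made and in their kinetics. Aldolase A is the widespread form and aldolase C the form of brain, long used as a marker of astrocytes. Lactate dehydrogenase is a tetramer of A and B chains, encoded by Ldha and Ldhb; the A chain is generally linked with forming lactate from pyruvate and the B chain with using lactate. Astrocytes and neural stem cells are both described as strongly glycolytic, and dividing cells of many kinds are too.

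Within C, a library was called cycling where the mean log2(TPM + 1) of 18 S phase genes or of 21 genes of G2 and mitosis reached 3. That gave 26 cycling libraries, the rest of C being non-cycling, and 10 libraries had a higher list mean between 2 and 4, on either side of the limit. Mki67, a protein of dividing cells, is itself 1 of the 21 genes of G2 and mitosis. It reached 1 TPM in 17 of 26 cycling libraries and in 9 non-cycling ones. Markers of mature neurons, oligodendrocytes and their precursors, vessel cells or microglia (list mean of at least 4) appeared in 14 C libraries, of which 2 were cycling, in 17 N libraries and in all 4 R libraries. These are called libraries of other lineages here, mature neurons included. In 6 of the 14 C libraries and in all 4 R libraries the highest of these lists was that of mature neurons. By the highest of these lists, the N libraries with such markers were oligodendrocyte precursor (5), oligodendrocyte (4), endothelial (5) and mural (3). Lists of astrocyte and stem cell markers were not among those compared, and could be higher. The median number of genes at 1 TPM or more was 3701 in C, 3565 in N and 3240 in R.

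Isoenzyme levels can be compared only if reads tell the genes apart. No stretch of 50 bases was shared between the Aldoc and Aldoa transcripts, or between those of Ldha and Ldhb (GENCODE M21). The most alike stretch of each pair follows, 5′ to 3′ along the coding strand, with the longest identical run in capitals. In the aldolases that run is 26 bases and lies across the junction of exons 5 and 6 of Aldoc, a gene at chr11:78322968-78327781 on the plus strand, and of exons 6 and 7 of Aldoa, at chr7:126795234-126800751 on the minus strand. In the lactate dehydrogenases it is 18 bases across exons 6 and 7 of both Ldha, at chr7:46841475-46855627 on the plus strand, and Ldhb, at chr6:142490249-142507957 on the minus strand. These positions are those of build GRCm38, while the authors' values were made on mm9.
Aldoc: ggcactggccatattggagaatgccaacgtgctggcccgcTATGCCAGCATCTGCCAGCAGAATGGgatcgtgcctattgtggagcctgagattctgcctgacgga
Aldoa: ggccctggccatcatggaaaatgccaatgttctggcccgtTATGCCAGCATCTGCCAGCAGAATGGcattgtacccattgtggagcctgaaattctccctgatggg
Ldha: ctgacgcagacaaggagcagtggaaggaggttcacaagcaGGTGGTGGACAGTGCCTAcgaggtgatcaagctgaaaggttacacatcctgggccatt
Ldhb: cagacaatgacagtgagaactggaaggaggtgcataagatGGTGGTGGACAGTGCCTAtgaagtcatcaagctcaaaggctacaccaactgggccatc

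Aldoc was the gene that set C apart from N most clearly, with Ldhb next. Of the 9 genes that passed the filter on low values, these 2 were higher in C than in N by at least 1 on the log2(TPM + 1) scale, a 2-fold step used here as the call, and 0 were lower. Over all 12007 genes that passed, 9.98% were called higher and 4.19% lower. The median difference was 0.77 over the 9 enzymes and 0.17 over all genes. The remaining 7 differed by between -0.44 (Pfkm) and 0.85 (Gpi1), under the call. Without libraries of other lineages, Aldoc and Ldhb were still higher on this scale, although the mean TPM of Ldhb was then close in C and N. Pfkm, at -2.03, was also past the call and lower in C, while 11.5% of all genes were higher and 11.1% lower. The median difference was then -0.08 over the 9 enzymes and 0.12 over all genes. With libraries of at least 3000 genes, Pfkm (-1.31) and Ldha (1.08) passed the call as well. Hk2 did not pass the filter.

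**Figure D1:**
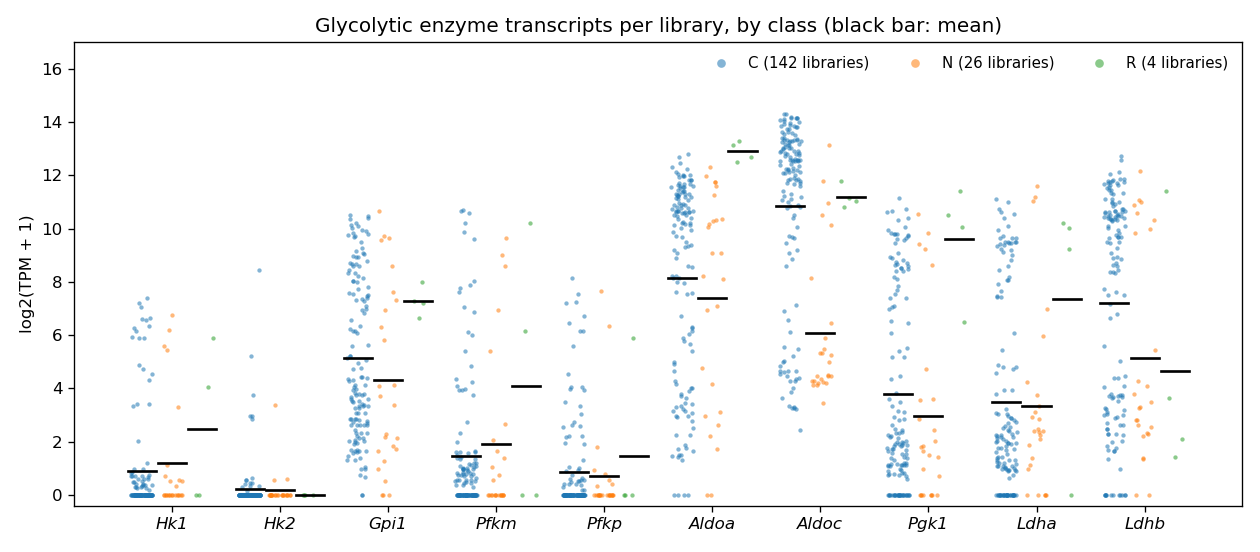
Levels of the 10 enzymes, as log2(TPM + 1), in C, N (26 libraries) and R (4 libraries), with a point for each library and a black bar for the mean. Aldoc lies high in most C libraries and low in most N libraries, Aldoa and Pgk1 are highest in R, and most enzymes split into a high and a low band within a class.

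Hexokinases trap glucose in the cell by phosphorylating it, and both were sparse. Hk1, the main hexokinase of brain, had a median of 0 TPM in C (range 0 to 169.6) and of 0 TPM in N (0 to 108.5). It reached 1 TPM in 14.8% of C libraries (exact Clopper-Pearson 95% interval 9.39 to 21.7, covering counting error only) and in 23.1% of N libraries (8.97 to 43.6). In R it was 0, 57.99, 15.79 and 0 TPM in libraries R1 to R4. Hk2, the hexokinase of muscle and of many tumours, reached 1 TPM in 6 C, 1 N and 0 R libraries, and its highest value was 347 TPM in a C library. A value listed at 0 may stand for an estimate that failed, not only for a missing transcript, and 78.5% of all values in the table were listed at 0.

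Gpi1 turns glucose 6-phosphate into fructose 6-phosphate. It was spread widely in C, from 0 to 1463 TPM with a median of 18.7, and in N, from 0 to 1617 TPM with a median of 10.7, so the classes overlapped throughout. Its values in R1 to R4 were 147, 153, 255 and 98.4 TPM, all inside the range of C.

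Phosphofructokinase makes the committed step of glycolysis and is built from muscle (Pfkm), liver and platelet (Pfkp) type subunits. Pfkm ran from 0 to 1659 TPM in C with a median of 0.335, and from 0 to 808.9 TPM in N with a median of 0. The mean of Pfkm was 65.17 TPM in C and 72.71 TPM in N. Pfkp was lower by the mean, at 9.18 ± 35.8 TPM in C and 11.01 ± 41.8 TPM in N (SD between libraries). Few libraries held both subunits: at a level of 50 TPM, Pfkm alone was reached in 12 C libraries, Pfkp alone in 6 and both in 2, and 85.9% of C libraries reached neither. In R, Pfkm stood at 70.8, 0, 1177 and 0 TPM, and Pfkp was listed at 0 in all but R3, at 57.8 TPM.

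The level of 50 TPM, chosen after the values were seen, was used to part a high from a low band. The parting was not clean for every gene. Between 20 and 100 TPM lay 25 libraries for Aldoc, 21 for Gpi1 and 16 for Hk1, and from 1 (Hk2) to 12 (Aldoa) for the others. For Hk1 the median of the values at 50 TPM or more was only 81.3 TPM. The median of the values under 50 TPM was between 0.379% (Aldoc) and 0.708% (Ldha) of the gene's mean over the table for Aldoa, Aldoc, Pgk1, Ldha and Ldhb. It was 2.86% for Gpi1 and 0 for Hk1, Hk2, Pfkm and Pfkp. Aldoc was above 0 in all 172 libraries. Of the 130 genes with a mean of at least 1000 TPM, 37 were above 0 in every library. Whether values in the low band are transcripts of the cell itself was not tested.

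Aldolases split fructose 1,6-bisphosphate into triose phosphates. Aldoc ran from 4.45 to 20250.0 TPM in C with a median of 4888, and from 9.83 to 9040.0 TPM in N with a median of 26.5. The ranges overlapped, but 82.4% of C libraries reached 50 TPM (interval 75.1 to 88.3), against 30.8% of N libraries (14.3 to 51.8). The mean was 6159 ± 5624 TPM in C and 691 ± 1887 TPM in N (SD), a difference of 4.76 in mean log2(TPM + 1). The single N library N11 held the highest N value; its astrocyte list mean of 9.94 was also the highest of N. With the libraries of other lineages left out of both classes, which keeps 9 N libraries, the difference was 5.19.

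Aldoa was under the call between C and N, and its direction depended on the libraries used. Its median was 1075 TPM in C (range 0 to 7154) and 418 TPM in N (0 to 5153), and the difference in mean log2(TPM + 1) was 0.77, and -0.83 without libraries of other lineages. Within N it varied with the marker lists: 3 mural libraries held a mean of 1602 TPM and 5 endothelial libraries 29.4 TPM. The share of Aldoc in the summed TPM of both aldolases had a median of 82.8% in C (quartiles 67.8 and 93.7) and of 25.99% in N (5.44 and 73.6). Aldoc made up over 50% of the pair in 88.03% of C libraries and in 42.3% of N libraries. With only libraries whose summed TPM was at least 100, the N median was lower: 83.3% in C and 6.38% in N (18 libraries), with Aldoc over 50% in 87.7% of C libraries and in 22.2% of N libraries.

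The proportion was turned round between C and R. Aldoa stood at 10143, 5773, 6702 and 9154 TPM in R1 to R4, so that R1 and R4 lay above every C library and R2 and R3 inside the C range. Aldoc stood at 2263, 1788, 3563 and 2123 TPM, inside the C range and below its median. Against the C median of 82.8%, Aldoc was 18.2% to 34.7% of the pair in R, and in 0 of 4 R libraries was it over 50%.

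Pgk1 makes the first ATP of the pathway. It had a median of 3.04 TPM in C (range 0 to 2254) and of 2.31 TPM in N (0 to 1497), and 45 C and 5 N libraries (31.7% and 19.2%) reached 50 TPM. In R it stood at 1057, 2711, 89.96 and 1449 TPM, so all 4 R libraries were in the high band. Its transcript shares 68% of its 50-base words with other annotated genes, Pgk1-rs7 first among them, so the split of its reads is uncertain.

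Lactate dehydrogenases turn pyruvate and lactate into each other. Ldhb had a median of 483 TPM in C (range 0 to 6842) and of 9.45 TPM in N (0 to 4580), and it reached 50 TPM in 87 C and 8 N libraries (61.3% and 30.8%). The difference in mean log2(TPM + 1) was 2.05, and 1.10 without libraries of other lineages. By the ratio of mean TPM, 1066 TPM in C against 599 TPM in N, it was 0.83 on the log2 scale and under the call. That N mean leans on N11, at 4580.0 TPM: without it the N mean was 439.4 TPM and the log2 ratio 1.28, past the call. Without libraries of other lineages, the mean of Ldhb was 1129 TPM in C and 1032 TPM in N, a ratio of 1.09. Ldha was low in most libraries of both classes, with a median of 3.08 TPM in C (range 0 to 2212) and of 4.30 TPM in N (0 to 3084), and 37 C and 5 N libraries (26.1% and 19.2%) reached 50 TPM.

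Among C libraries the commonest lactate dehydrogenase pattern at 50 TPM was Ldhb alone (64 libraries, 45.1%), and Ldha alone was seen in 14 (9.86%). R libraries leaned the other way. Ldha stood at 1179, 607, 1048 and 0 TPM in R1 to R4, and Ldhb at 11.6, 3.24, 2758 and 1.69 TPM. Ldha alone was thus in the high band in R1 and R2, both chains in R3 and neither in R4.

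Against R, C was lower in most of these enzymes. Of the 9 that passed the filter, 6 were lower in C by at least 1 on the log2(TPM + 1) scale and 1 was higher; over all genes 20.9% were lower and 22% higher. The differences were -5.82 for Pgk1, -4.76 for Aldoa, -3.88 for Ldha, -2.62 for Pfkm, -2.12 for Gpi1 and -1.61 for Hk1, with 2.55 for Ldhb. Several of these rest on 1 or 2 libraries. Pfkm was -0.58 without R3 and Hk1 was -0.48 without R2, both under the call. Ldhb was 0.62 by the ratio of mean TPM, under the call, and with only libraries of at least 3000 genes it was -0.07, since R2 and R4 then drop out and R3, with 2758 TPM, weighs more. Gpi1 depends on the scale, since its mean was 206 ± 348 TPM in C and 163 ± 65.7 TPM in R (SD), which is higher in C, whereas its median was 18.7 TPM in C and 150 TPM in R. Aldoc gave -0.34 on the log2 scale, while its mean TPM in C was 2.53 times that in R. Markers of mature neurons had a list mean between 0.08 and 5.69 in C and between 6.03 and 6.16 in R. R libraries also held astrocyte markers, with a list mean between 4.18 and 6.5, beside 1.48 to 9.79 in C. The part of either list in these differences was not tested.

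Within C, cycling cells held much less of both aldolases and of Ldhb, and somewhat more Ldha by the mean. Of the 9 enzymes that passed the filter, 3 (Aldoc, Aldoa and Ldhb) were lower in cycling libraries by at least 1 on the log2(TPM + 1) scale and 1 (Ldha) was higher; over all genes 4.78% were lower and 15% higher. Without libraries of other lineages the same counts, 3 and 1, stood beside 4.63% and 16.3% of all genes. The other 5 differed by between -0.32 (Pfkm) and 0.37 (Pfkp). The median difference was -0.15 over the 9 enzymes and 0.02 over all genes.

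**Figure D2:**
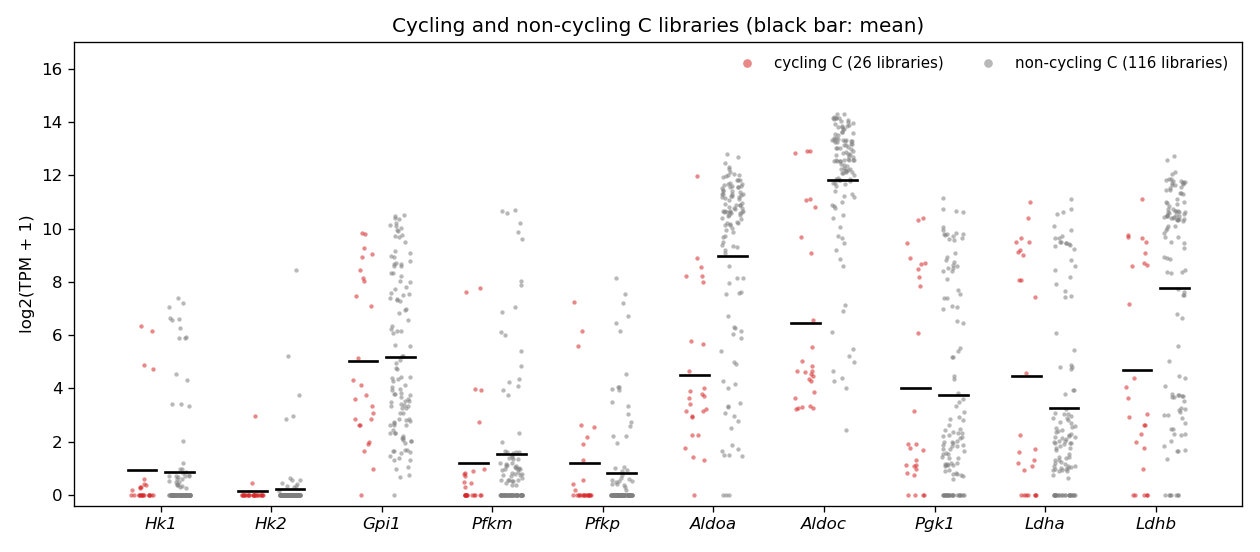
Levels of the 10 enzymes, as log2(TPM + 1), in cycling (26) and non-cycling C libraries, with a point for each library and a black bar for the mean. Aldoc, Aldoa and Ldhb fall in the low band in most cycling libraries and in the high band in most non-cycling ones, whereas Gpi1 and Pgk1 have both bands in both groups.

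Aldoc ran from 8.46 to 7739 TPM in cycling libraries with a median of 24.2, and from 4.45 to 20250.0 TPM in non-cycling libraries with a median of 6104. The ranges overlapped, and 34.6% of cycling libraries reached 50 TPM (9 of 26, interval 17.2 to 55.7) against 93.1% of non-cycling libraries (86.9 to 96.98). The mean was 1182 ± 2452 TPM in cycling and 7275 ± 5533 TPM in non-cycling libraries (SD), and the difference in mean log2(TPM + 1) was -5.38. It was -5.78 without libraries of other lineages, and between -4.68 and -7.16 with other ways of calling a cell cycling.

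Aldoa was also lower in cycling libraries. It ran from 0 to 4086 TPM in cycling libraries with a median of 11.7, and from 0 to 7154 TPM in non-cycling libraries with a median of 1548. It reached 50 TPM in 26.9% of cycling (7 of 26, interval 11.6 to 47.8) and 81.03% of non-cycling libraries (94, interval 72.7 to 87.7), and the difference in mean log2(TPM + 1) was -4.48.

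The proportion of the aldolases had no firm difference between the groups. Aldoc was 81.3% of the pair in cycling libraries by the median (quartiles 63.7 and 93.8) and 82.8% in non-cycling libraries (69.02 and 93.7). The difference was -1.59 percentage points, and the SD between non-cycling cells was 23.1. In only 12 of the 26 cycling libraries did the pair sum to 100 TPM, so most of the cycling shares are ratios of low-band values. Among cells with such a sum the medians were 93.2% in cycling and 82.8% in non-cycling libraries, a difference of 10.4. It was 1.19 without the library C27, whose column fits 2 sample titles, and -12.6 with cycling called by Mki67 alone. The summed TPM gave Aldoc 83.6% in cycling and 81.3% in non-cycling libraries. What did differ was how many cells held either gene: at 50 TPM, 13 of 26 cycling libraries (50%, interval 29.9 to 70.1) and 6 non-cycling libraries (5.17%, 1.92 to 10.9) reached it for neither aldolase. Both aldolases reached it in 3 cycling and 92 non-cycling libraries.

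The lactate dehydrogenase pair differed in its median share. Ldhb ran from 0 to 2211 TPM in cycling libraries with a median of 9.38, and from 0 to 6842 TPM in non-cycling libraries with a median of 960, a difference of -3.06 in mean log2(TPM + 1). It reached 50 TPM in 10 of 26 cycling libraries (38.5%, interval 20.2 to 59.4) and in 77 non-cycling ones (66.4%, 57.02 to 74.9), intervals that overlap narrowly. Ldha had nearly the same median in cycling (3.03 TPM, range 0 to 2027) and non-cycling libraries (3.08 TPM, range 0 to 2212), and the groups overlapped throughout. It reached 50 TPM in 11 of 26 cycling libraries (42.3%, interval 23.4 to 63.1) and in 26 non-cycling ones (22.4%, 15.2 to 31.1), intervals that overlap. Its mean was 308.8 ± 500 TPM in cycling and 170 ± 394 TPM in non-cycling libraries (SD).

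Ldha was 41.3% of the pair by the median in cycling libraries (quartiles 0.026 and 98.7) and 0.656% in non-cycling libraries (0.054 and 32.5). The difference was 40.7 percentage points, and the SD between non-cycling cells was 31.3. The cycling shares were spread over nearly the whole range, and Ldha was over 50% of the pair in 12 of 26 cycling libraries. Among cells with a summed TPM of at least 100 the medians were 60.8% (17 cycling) and 0.357% (82 non-cycling). At 50 TPM, Ldha alone was reached in 7 of 26 cycling libraries (26.9%, interval 11.6 to 47.8) and 7 non-cycling libraries (6.03%, 2.46 to 12.0). Ldhb alone was reached in 6 of 26 cycling libraries (23.1%, 8.97 to 43.6) and 58 non-cycling ones (50%, 40.6 to 59.4). For either pattern the intervals of cycling and non-cycling libraries overlap narrowly. Cycling libraries were thus spread over all patterns, with 4 holding both chains and 9 neither. When Mki67 at 1 TPM defined the cycling cells, the medians were 12.3% and 0.773%, a difference of 11.5, and Ldha itself differed by -0.09 in mean log2(TPM + 1) in place of 1.17.

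**Figure D3:**
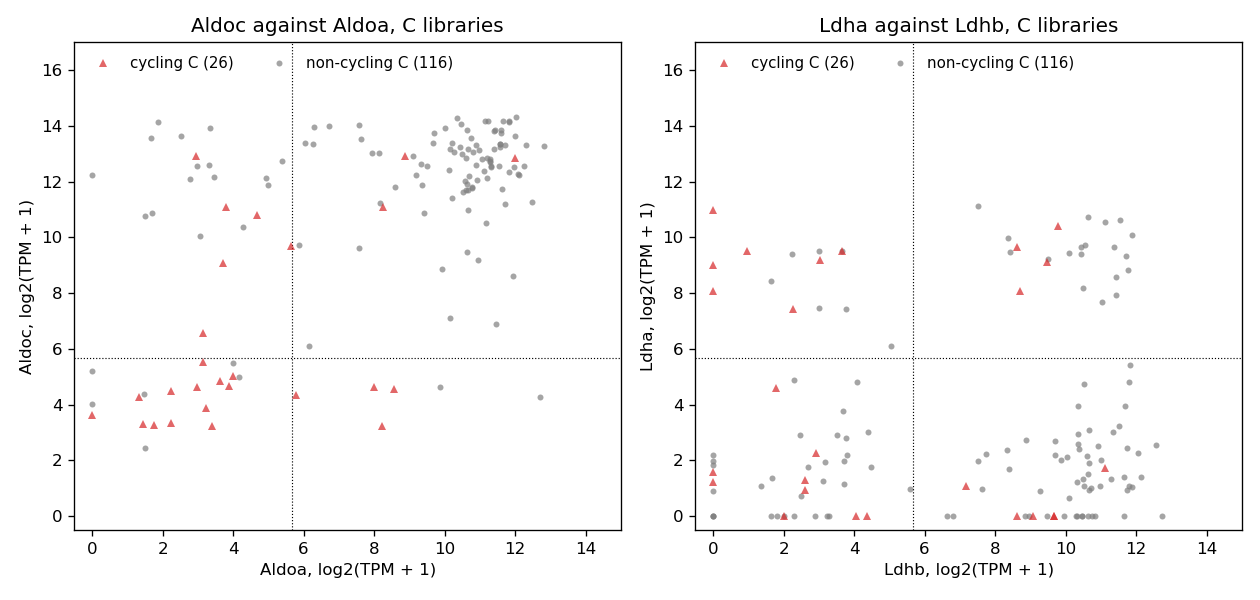
Aldoc against Aldoa (left) and Ldha against Ldhb (right), both as log2(TPM + 1), in each C library, with triangles for the 26 cycling and circles for the non-cycling libraries and dotted lines at 50 TPM. Of the non-cycling libraries, 92 lie in the upper right of the aldolase plot and 58 hold Ldhb alone, while 13 cycling libraries lie in the lower left of the aldolase plot.

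Cycling cells were not alike in Aldoc. In a split added after the values were seen, Aldoc reached 50 TPM in 2 of 17 cycling libraries with Mki67 of at least 1 TPM (median 19.5 TPM) and in 7 of 9 cycling libraries with less (median 2190.0 TPM). Ldha reached it in 6 of 17 and 5 of 9 of the same libraries. Among the 9 non-cycling libraries with Mki67 of at least 1 TPM, Aldoc reached it in 7 (median 1870.0 TPM). Of the 17 cycling libraries under 50 TPM of Aldoc, 15 thus had Mki67 at 1 TPM or more.

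Marker lists differed between the same groups. The mean of the astrocyte list, on the log2(TPM + 1) scale, was 3.29 in cycling (range 1.66 to 6.59) and 5.93 in non-cycling libraries (1.48 to 9.79), and that of the stem cell list was 3.97 (1.87 to 5.63) and 5.33 (1.35 to 7.65). The intermediate progenitor list was higher in cycling libraries, 3.22 (0.56 to 5.69) against 1.58 (0.06 to 5.75). Their part in the enzyme differences was not tested. The median number of genes at 1 TPM or more was close, 3880.0 in cycling and 3676 in non-cycling libraries. Gapdh, the glycolytic enzyme often used as a constant control, had a mean of 2161 TPM in cycling and 1955 TPM in non-cycling libraries.

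The same enzymes were placed on an order of the C cells. The order is the rank on the first principal component (7.19% of the variance) of the 1000 most variable genes outside all lists, over the C libraries without markers of other lineages, and it was turned so that the intermediate progenitor list lies above the stem cell list. Spearman's rho with the rank was -0.37 for Aldoc and -0.30 for Aldoa, past 0.2 in size, and between -0.19 (Ldhb) and 0.17 (Pfkp) for the other 8, with 0.11 for Ldha. Of all genes, 2.90% had a rho of -0.2 or below and 15.2% of 0.2 or above. Among the non-cycling cells alone rho was -0.03 for Aldoc and -0.02 for Aldoa. The rank had a rho of 0.31 with the number of genes detected, 0.57 with the intermediate progenitor list mean, -0.41 with the astrocyte list mean and -0.12 with the stem cell list mean, so its low end is only weakly marked by stem cell genes.

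The order was divided into 5 bins of 25 or 26 cells, with 0, 0, 2, 4 and 18 cycling cells. The aldolases were frequent in the first 4 bins and less so in the last. Aldoc reached 50 TPM in 25, 25, 24, 24 and 10 cells. Its mean over the bins was 7227, 7922, 8969, 7275 and 1415 TPM. Aldoa reached 50 TPM in 20, 24, 21, 19 and 10 cells. Ldhb was counted in 15, 16, 17, 19 and 12 cells and Ldha in 4, 4, 5, 12 and 9, so Ldha was most frequent in the fourth bin, which held 4 cycling cells. Pgk1 was also most frequent there, in 4, 6, 10, 13 and 8 cells over the bins.

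**Figure D4:**
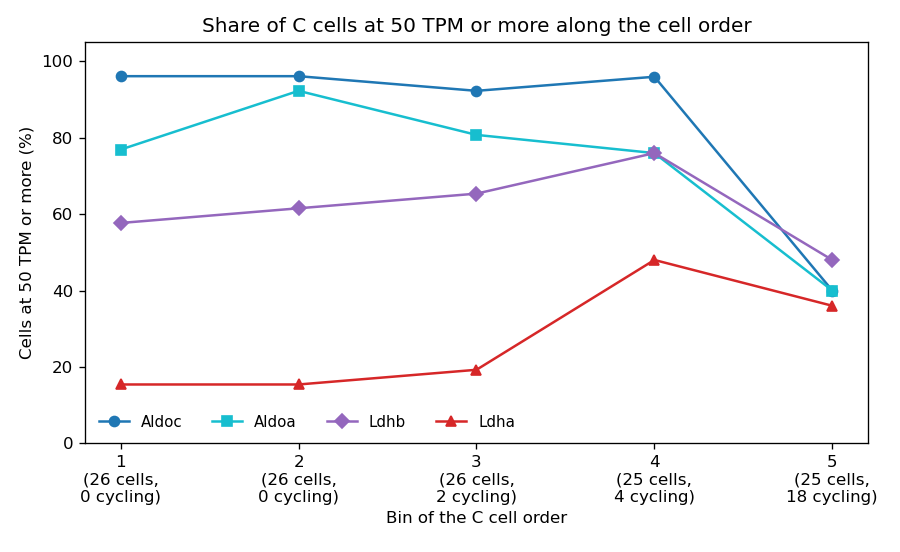
Percent of C cells at 50 TPM or more for Aldoc, Aldoa, Ldhb and Ldha in the 5 bins of the cell order, from low rank to the intermediate progenitor end, with the number of cells and of cycling cells under each. Aldoc is at 92.3% or more in the first 4 bins and at 40% in the last, whereas Ldha is highest in the fourth, at 48%.

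The enzymes were only loosely tied to each other from cell to cell. Over the ordered C cells, which share the scaling of TPM to a common total, rho was 0.44 between Aldoc and Ldhb, 0.43 between Aldoc and Aldoa, 0.37 between Pfkm and Pgk1, and 0.11 between Ldha and Ldhb. Over the non-cycling cells alone the first 2 were 0.33 and 0.19. Partners were sought over all ordered C cells, cycling ones included, among 6121 genes detected in at least 20% of them. Aldoc was most like Gstm3 (rho 0.65) and Gstm1 (0.64), both glutathione transferases, and Sparcl1 (0.60), a secreted matrix protein of astrocytes. Aldoa was most like Car2 (0.48), a carbonic anhydrase, Ddah1 (0.44) and Sparcl1 (0.43). Ldhb was most like Clu (0.43), the lipid carrier clusterin, Sparcl1 (0.43) and Atp6v0c-ps2 (0.42). All of these were lower over the non-cycling cells alone. There rho was 0.44 to 0.48 for the partners of Aldoc, 0.23 to 0.35 for those of Aldoa and 0.31 to 0.34 for those of Ldhb.

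Ldha was most like Gm13315 (rho 0.68), then Gfap (0.33), an intermediate filament protein of astroglia, and Haghl (0.32). Over the non-cycling cells alone the values were 0.60, 0.31 and 0.27. Gm13315 holds 0.283% of the 50-base words of the Ldha transcript, so reads may be divided between them. Other near copies touch the members unevenly. The share of 50-base words found in another gene was 0% for Aldoc, Hk2 and Pfkm, 2.55% for Hk1, 13.5% for Aldoa, 16.6% for Ldha, 17.1% for Pfkp, 25.3% for Gpi1 and 27% for Ldhb. The share of Pfkp lies in Pitrm1, whose mean over all libraries was 56.92 TPM, beside 9.58 TPM for Pfkp. Their rho over all C libraries was 0.49, so the split of the reads of Pfkp is uncertain. Aldoart1, a retrogene of Aldoa, shares 6.27% of the words of Aldoa. Its mean was 11.3 TPM in cycling and 82.1 TPM in non-cycling libraries, far under Aldoa in both.

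The rest of the pathway gave more calls against R than between C and N. The wider list, which was fixed with earlier results of these data known, holds 43 other genes of glucose transport, glycolysis, its control, gluconeogenesis and the fate of pyruvate and lactate, and 28 of them passed the filter. Between C and N, 1 of the 28 was higher in C and 1 lower, beside 9.98% and 4.19% of all genes. Without libraries of other lineages 2 were higher and 9 lower, beside 11.5% and 11.1%. Over all libraries the higher one was Gapdh (1.05), whose mean was 1993 TPM in C and 1836 TPM in N. It was under the call without libraries of other lineages (0.51), with scaling to the 75th percentile or with libraries of at least 3000 genes. Of its 50-base words, 82.5% are shared with other genes, so the split of its reads is uncertain. Slc2a1, the glucose transporter of the blood-brain barrier, was lower (-2.84), at 30.6 ± 130.1 TPM in C and 459.5 ± 883 TPM in N (SD). Without libraries of other lineages, endothelial ones included, Slc2a1 was still lower (-2.98), at 21.96 TPM in C and 609.9 TPM in N. Against R, 3 were higher in C and 14 lower, beside 22% and 20.9% of all genes. The lowest were Eno2, the neuronal enolase (-8.20), Mpc2, a subunit of the mitochondrial pyruvate carrier (-4.72), Pdha1, a subunit of pyruvate dehydrogenase (-4.46), Pkm, pyruvate kinase (-3.43), Pfkl, the liver type of phosphofructokinase (-2.97), and Mpc1, the partner of Mpc2 (-2.73). Higher in C was Pfkfb2, which makes the activator of phosphofructokinase (2.61), at 65.2 TPM against 0.325 TPM in R.

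Between cycling and non-cycling C libraries, 2 of the 28 were higher and 4 lower, beside 15% and 4.78% of all genes. Pgam1 and Tpi1, enzymes of the middle of the pathway, were higher in cycling libraries by 2.07 and 1.54, with means of 216 and 638 TPM in cycling and of 156 and 494 TPM in non-cycling libraries. Pfkfb2 (-1.54), Pdk2, a kinase that turns off pyruvate dehydrogenase (-1.31), Pdhb, a subunit of that enzyme (-1.09), and Eno1, the widespread enolase (-1.06), were lower. Without libraries of other lineages 3 were higher and 3 lower: Mpc2 passed the call (1.06) and Pdhb was under it (-0.75). The median over the 28 was -0.06, beside 0.02 over all genes.

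The promoters of Ldha and Ldhb are shown because the share of these chains differed between cycling and non-cycling cells, although Ldha by itself had no firm direction. Each window runs from 250 bases before to 50 after an annotated start in RefSeq on GRCm38.p6, at chr7:46845554-46845853 on the plus strand for Ldha and chr6:142507908-142508207 on the minus strand for Ldhb. Capitals mark ACGTG on either strand, a form of the core recognised by hypoxia-inducible factors; it overlaps its own reverse complement in CACGTG, where both were counted. The Ldha window holds 5 matches and the Ldhb window 0, and a second listed start of Ldha holds 0. At the start used for each of the other members, Pfkm holds 3 matches, Hk2 and Pgk1 hold 2 each and Aldoa holds 1. Hk1, Gpi1, Pfkp and Aldoc hold 0 there. These counts depend on the start: another listed start holds 2 for Hk1 and 1 for Aldoc. Further starts of Pfkm and of Aldoa hold 1 or 0. Of 32851 such windows of the mouse genes, 19.6% hold at least 1 match. A match describes the sequence only, and binding was not measured.
Ldha: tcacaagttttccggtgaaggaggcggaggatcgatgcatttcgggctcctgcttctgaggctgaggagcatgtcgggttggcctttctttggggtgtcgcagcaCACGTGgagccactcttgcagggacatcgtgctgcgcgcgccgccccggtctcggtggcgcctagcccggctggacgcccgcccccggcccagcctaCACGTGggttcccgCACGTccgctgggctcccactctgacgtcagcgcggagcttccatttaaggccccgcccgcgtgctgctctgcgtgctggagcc
Ldhb: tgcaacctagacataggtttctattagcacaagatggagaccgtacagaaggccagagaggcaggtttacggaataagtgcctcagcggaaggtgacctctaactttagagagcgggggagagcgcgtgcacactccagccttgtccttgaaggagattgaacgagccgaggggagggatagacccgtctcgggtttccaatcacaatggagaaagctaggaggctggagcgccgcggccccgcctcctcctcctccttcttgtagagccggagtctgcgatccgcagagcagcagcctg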

How the data were processed

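Single-cell RNA-seq libraries of the mouse dentate gyrus were analysed from 1 table. The authors deposited TPM per gene and library, estimated with RSEM on mm9 per the submitters' processing notes (version not given in the sources used here, nor are the aligner or gene models). RSEM divides reads that fit several genes by its model. The labels list 173 samples, and of the table's 172 columns 171 match 1 title; C27 fits 2 titles and was used as a C library.

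The members and lists were chosen with earlier results of these data known. Levels were taken as log2(TPM + 1), which understates changes of low genes. Genes needed 1 TPM in 5% of libraries, which kept 12007, among them 9 of the 10 enzymes. A difference of mean log2 values of at least 1 was called. No p-value was computed, since cells of unnamed animals are not replicates. Doublets were not called. The computation of differences and of the cell order was tested on simulated data with known answers, which says nothing of the calls themselves. Named genes are the 10 enzymes, the 3 genes most like each of Aldoc, Aldoa, Ldha and Ldhb, and Mki67. Mki67 is in the list of G2 and mitosis, so it is no independent check of the cycling call. Wider-list genes past the call in a comparison are named too (up to the 8 furthest from 0, detected in at least 20% of the higher group). Some genes that the rule takes are given only as counts. Transcript words came from GENCODE M21 and promoters from RefSeq. Python 3.11.15, numpy 2.4.6, pandas 2.3.3, scipy 1.17.1 and matplotlib 3.10.9 were used. Alternatives covered the pseudocount, the filter, the scaling, the mean, the cycling call and left-out libraries.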

Additional observations from a re-analysis of the deposited data

Results flagged for a closer look

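In 2 of the 10 enzymes, 1 of the 4 R libraries lay far from the other 3. Pfkp was 57.83 TPM in R3 and listed at 0 in R1, R2 and R4. Ldha was listed at 0 in R4, while the lowest of the other 3 R libraries had 607 TPM. For normally distributed values, chance flags about 1 in 20 groups of this size, and with 10 enzymes looked at in R some flags can arise that way. That rate does not hold for values that are often listed at 0 or split into bands. With 3 libraries at 0, as for Pfkp, any value above 0 in the remaining library is flagged. The cause was not tested.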

How the results depend on the processing

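No paired analysis was possible because the results come from no test and the libraries of the 3 classes share no animal, culture or batch label. Of 310 recomputed differences of single enzymes, 15 lost the call, 17 gained it and 22 turned in sign, 7 of these by a shift of at least 1. Among called values, those that turned were Gpi1 in C minus R by the ratio of mean TPM (0.33), Ldhb in C minus R with at least 3000 genes per library (-0.07), and Ldha in cycling minus non-cycling cells called by Mki67 (-0.09). The other turns of at least 1 were Aldoa in C minus N without libraries of other lineages (-0.83), Pfkm in C minus N by the ratio of mean TPM without N11 (0.58), and, in C minus R, Aldoc by the ratio of mean TPM (1.34, past the call) and Pfkp without R3 (0.88). Between C and N the enzymes past the call numbered 2, and 4 with a pseudocount of 0.1, 1 by the ratio of mean TPM and 4 with at least 3000 genes per library; the wider list gave 2, and 7 with a pseudocount of 0.1, 9 by the ratio of mean TPM, and 11 both without libraries of other lineages and by the ratio without N11. Between cycling and non-cycling cells the wider list gave 6, and 2 with a pseudocount of 10 and 14 by the ratio of mean TPM. Along the order 2 enzymes passed a rho of 0.2, and 0 among non-cycling cells. Leaving out each R library gave 6 to 8 enzymes and 17 to 18 wider-list genes past the call. Aldoc, Aldoa and Ldhb stayed lower in cycling cells under every alternative run, while Ldha fell under the call with scaling to the 75th percentile, the ratio of means, at least 3000 genes, cycling limits of 2 and 4, the G2 and mitosis list alone and Mki67. C minus R without libraries of other lineages was not run, since it leaves 0 R libraries. The runs without C27 and N11 and the 50 TPM level were chosen after seeing the data. TPM keeps no depth, so differences of low genes such as Hk1, Hk2 and Pfkp cannot be told from sampling of few molecules.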
